A study of Mus musculus with 12 samples.

Results

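Transcripts of 9 ATP-driven efflux pump genes (Abcb1a, Abcb1b, Abcb4, Abcc1, Abcc2, Abcc3, Abcc4, Abcc6 and Abcg2) were followed in 12 liver RNA-seq libraries. The rows were found by gene symbol, and all 9 were listed in all 4 group tables, out of 14944 genes listed in any of them. The 9 genes were chosen by their role, with differential expression values of these same libraries already known. Abcc4 in DEN-treated wild type and Abcb1a in DEN-treated labelled knockout were among the values known to be high. Differences with DEN are therefore described below without printed p-values. Whether each passed the threshold of the test is stated as description only. Counts of pumps called with DEN support nothing by themselves.

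The libraries came from livers of male C57BL/6 mice, either wild type (WT) or littermates labelled Otud3 knockout, with 3 mice in each group. Otud3 encodes a deubiquitinase, and diethylnitrosamine (DEN) is a carcinogen that hepatocytes activate. The DEN mice had received 1 intraperitoneal dose of 25 mg/kg in saline when 15 days old and were killed 30 weeks after it. The No DEN groups carry no stated age at collection and no stated sham injection, so DEN cannot be told apart from age or handling. The series describes the material as liver cancer tissue, the sample labels say liver, and neither says which pieces held tumour or which part of Otud3 was deleted. Otud3 reads were present in every library, 201 to 409 in the labelled knockouts and 350 to 560 in WT. Gene-level counts therefore do not check the genotype, and these groups are called labelled knockout.

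Hepatocytes take drugs, bilirubin and bile salts from blood through carriers of the sinusoidal membrane and export them, often as conjugates, with ATP-binding cassette pumps. Pumps of the canalicular membrane (the P-glycoproteins, Abcb4, Abcc2 and Abcg2) secrete into bile, while Abcc3 and Abcc4 sit on the basolateral side and return conjugates and bile salts to blood. In cholestasis the basolateral pumps are known as an overflow route, and several pumps of both families are known for exporting anticancer drugs from tumour cells.

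Libraries held 29668861 to 31111765 expected counts. On principal components of log2 CPM, DEN WT replicate 2 stood apart, at 129.4 on the first component (46.03% of the variance) against -31.2 to 13.7 in the other 11. Pump values that it moved by over 1.5 times, and calls that it decided, are given below also without it. The albumin transcript Alb, which marks hepatocytes, lay between 5.05e+04 and 9.05e+04 CPM in every library. Some other hepatocyte markers were lowest of all libraries in DEN WT replicate 2. Cyp2e1 was at 69.1 CPM there against 6335 to 9203 in the rest, and Glul at 32.3 against 721 to 1132. Cps1 was at 667 against 1630 to 3395, Hal at 31.0 against 122 to 392 and Asgr1 at 203 against 474 to 665. Others were not: Alb, Apoa1, Ttr (6540 CPM) and Serpina1a (5287 CPM) had their highest DEN value in that library. Tat, at 1227 CPM there, was lowest only among the DEN libraries. The 10 hepatocyte markers summed to 8.72e+04 to 1.371e+05 CPM without DEN and to 8.294e+04 to 9.583e+04 with DEN.

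The sequences bear on how far the 2 mouse P-glycoprotein genes can be counted apart, and on the promoters of pumps that were higher together with DEN. Abcb1a (Entrez 18671, chr5:8567091-8748575) and Abcb1b (Entrez 18669, chr5:8798147-8866314, both GRCm38.p6) lie 49572 bases apart, with the next pump, Abcb4, 27300 bases beyond Abcb1b. Their coding sequences in GENCODE M21 were 3828 bases each and were identical at 88.1% of 3819 aligned bases. The longest identical run was 338 bases across exons 13 and 14, and 20.3% of all 50-base windows of Abcb1a occurred unchanged in Abcb1b. The first 120 bases of that run are shown because a read that falls in them cannot be assigned by its sequence. They lie in exon 13, at chr5:8702387-8702506 in Abcb1a and chr5:8824707-8824826 in Abcb1b (GRCm38, plus strand). The next stretch, 90 bases of exon 16 with 29 differences, is shown because reads there can be assigned. It lies at chr5:8714894-8714983 in Abcb1a and chr5:8827333-8827422 in Abcb1b (plus strand), with bases that differ in capitals.
Abcb1a and Abcb1b, exon 13: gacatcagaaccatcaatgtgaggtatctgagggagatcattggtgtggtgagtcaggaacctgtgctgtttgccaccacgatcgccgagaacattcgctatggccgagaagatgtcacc
Abcb1a, exon 16: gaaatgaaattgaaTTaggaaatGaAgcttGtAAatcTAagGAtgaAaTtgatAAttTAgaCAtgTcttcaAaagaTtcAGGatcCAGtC
Abcb1b, exon 16: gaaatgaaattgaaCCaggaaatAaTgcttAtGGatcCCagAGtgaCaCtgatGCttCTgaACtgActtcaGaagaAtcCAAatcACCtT

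Promoter windows from RefSeq (GRCm38.p6, 250 bases before to 50 after an annotated start) were matched for 6 of the 9 genes. Those of Abcc2 and Abcc4 are printed because both genes rose with DEN on average. Capitals mark 5 of the motifs searched on both strands, namely TGACNNNGC (the core of the antioxidant response element bound by NRF2), GGGCGG (the GC box), the CCAAT box, the E-box letters CACGTG and the TATA box letters TATAAA.
Abcc2, chr19:43782058-43782357, plus strand: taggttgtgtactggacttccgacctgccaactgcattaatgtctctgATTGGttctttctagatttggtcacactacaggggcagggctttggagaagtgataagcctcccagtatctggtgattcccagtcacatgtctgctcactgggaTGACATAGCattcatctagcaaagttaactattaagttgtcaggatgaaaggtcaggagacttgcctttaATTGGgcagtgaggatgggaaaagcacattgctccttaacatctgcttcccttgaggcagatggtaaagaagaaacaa
Abcc4, chr14:118706170-118706469, minus strand: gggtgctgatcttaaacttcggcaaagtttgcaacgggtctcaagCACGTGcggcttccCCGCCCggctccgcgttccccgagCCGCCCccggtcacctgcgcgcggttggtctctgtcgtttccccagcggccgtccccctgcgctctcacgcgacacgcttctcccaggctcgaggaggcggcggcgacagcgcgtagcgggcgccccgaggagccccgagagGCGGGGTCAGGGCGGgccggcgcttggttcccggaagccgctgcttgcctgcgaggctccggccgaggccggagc

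TGACNNNGC began at base 153 of the Abcc2 window, and on the minus strand it began at base 226 of the Abcc4 window, directly before a GC box at base 235. RefSeq gives Abcc4 a second start, and its window (chr14:118676882-118677181, not printed) held TGACNNNGC at base 228 and no GC box. The window of the RefSeq start of Abcb1a also held it, at base 277 on the minus strand. That start, at 8567091, differs from the GENCODE transcript start at 8660077, so the Abcb1a window is not printed. The windows of Abcb1b, Abcb4 and Abcg2 did not hold these letters. Of all 32851 promoter windows in the table, 12.4% held TGACNNNGC, 35.7% held the GC box, 37.4% the CCAAT box, 7.15% the E-box and 13.6% the TATA box. The letters CATG, part of p53 sites, were also searched and are not in capitals, since 61.1% of all windows held them, that of Abcc2 at base 135. The DR4 repeats bound by CAR and PXR were searched in 2 forms, held by 0.0122% and 0.0152% of all windows, and neither was in a pump window. A match describes letters in a window and nothing about binding.

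Levels between genes were compared in TPM, the authors' length-scaled transcript share. Abcb4, Abcc2, Abcc3, Abcc6 and Abcg2 were abundant, at 22.64 to 142.1 TPM in every library. Abcb1a, Abcb1b, Abcc1 and Abcc4 were scarce, at 0.11 to 1.16 TPM without DEN and 0.24 to 28.05 TPM with DEN. In No DEN WT the order ran from Abcb4, the floppase that moves phosphatidylcholine into bile, at 98.4 ± 8.15 TPM (SD, n = 3), through Abcc3 at 63.2 ± 9.11, Abcc6 at 50.6 ± 7.13, Abcg2 at 36.2 ± 7 and Abcc2 at 33.7 ± 6.51. Only Abcb4 and Abcc3 did not overlap among these neighbours. The scarce genes followed with Abcb1b at 0.36 ± 0.106 TPM, Abcb1a at 0.277 ± 0.0351, Abcc4 at 0.227 ± 0.0208 and Abcc1 at 0.187 ± 0.0473, each overlapping the next. By mean TPM in that group, Abcb4 lay at percentile 92.3 of the 13371 genes listed in all 4 tables and Abcc1 at percentile 9.72.

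The order was not the same with DEN. In DEN WT Abcc2 led at 83.7 ± 50.6 TPM (SD, n = 3), and the other abundant pumps overlapped their neighbours down to Abcc6 at 36.8 ± 4.85. Abcc4 stood sixth at 10.4 ± 15.3 TPM, a mean carried by 1 library at 28.05 beside 1.54 and 1.58. In DEN labelled knockout Abcc3 led at 87.7 ± 11.9 TPM, overlapping Abcb4 at 85.0 ± 11.3, while Abcc2 at 68.8 ± 6.65 did not overlap Abcc6 at 49.5 ± 6.09. In No DEN labelled knockout Abcb4 led at 71.7 ± 9.63 TPM, with no overlap with Abcc6 at 41.5 ± 12.5. Summed over the 9 genes, TPM was 283.2 ± 37.4 in No DEN WT, 218.3 ± 45.1 in No DEN labelled knockout, 312.3 ± 20.8 in DEN WT and 342.6 ± 41.2 in DEN labelled knockout.

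**Figure D1:**
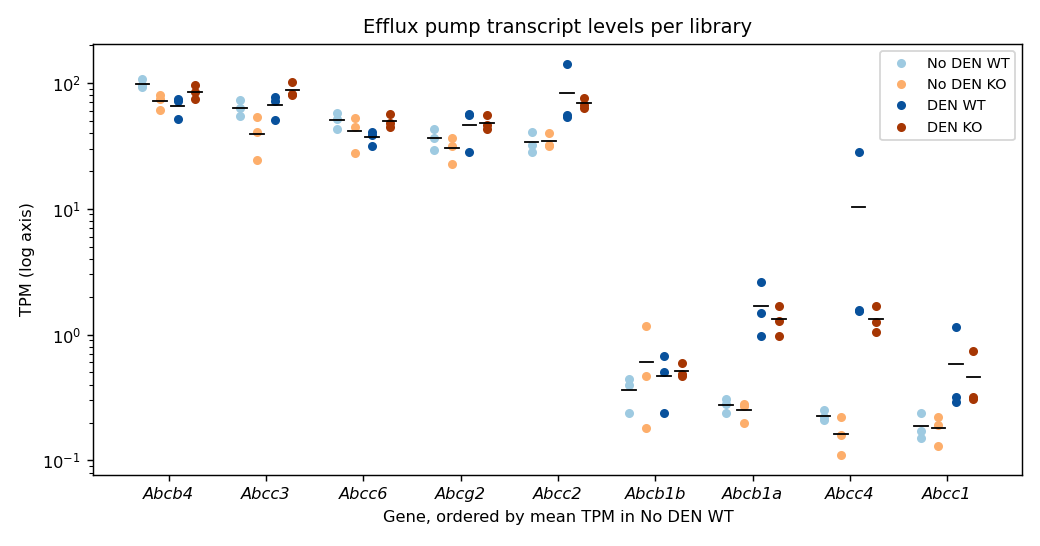
TPM (log axis) of each pump gene in each library, with genes ordered by mean TPM in No DEN WT, points for libraries and short lines for group means (KO, labelled knockout). The 5 abundant pumps lie between 22.64 and 142.1 TPM and the 4 scarce pumps below 3 TPM, apart from Abcc4 in DEN WT replicate 2 at 28.05.

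With DEN, the pumps did not move as 1 group. Abcb1a, Abcc2 and Abcc4 rose when both genotypes were averaged, 3 of the 9 genes in all and none fell. Each test was edgeR's quasi-likelihood test over 12909 genes, with a Benjamini-Hochberg adjusted p under 0.05 as the threshold. Across all genes tested, 16.5% passed in either direction and 8.4% upward. Of those calls 50.9% were upward, against 93.7% when TMM was replaced by library size scaling. Within WT this share was 50.6% and became 92.4%, and within labelled knockout it was 76.0% and became 95.9%. Abcb1a, Abcc1, Abcc2 and Abcc4 had no DEN library below any library without DEN, as 5.04% of all genes did, and no pump was separated the other way. Shares of all genes were not counted for downward separation, nor for groups without overlap within 1 genotype, which are given below as description. The median log2 difference was 0.27 over the 9 pumps and 0.0058 over all genes tested. Because earlier values of this contrast were in view when the genes were chosen, nothing is read from these counts. In bulk liver, fewer cells of a type and less RNA per cell cannot be told apart.

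Among the canalicular pumps, Abcb1a, a P-glycoprotein that expels a wide range of drugs, was measured at 1.44, 0.985 and 1.29 CPM (TMM-scaled counts per 1e+06 counts) in No DEN WT and at 1.46, 1.3 and 0.956 in No DEN labelled knockout. With DEN it was at 5.74, 7.22 and 3.81 CPM in WT and at 4.73, 3.66 and 6.27 in labelled knockout. The DEN libraries all lay above the others in both genotypes, with no overlap. The log2 difference was 2.07 ± 0.22 (SE) on average, 2.17 ± 0.31 in WT and 1.98 ± 0.31 in labelled knockout, and all 3 passed the threshold. Without DEN WT replicate 2 the average was 1.96.

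Abcb1b, the other P-glycoprotein gene, was at 1.78, 1.36 and 0.921 CPM in No DEN WT and at 5.07, 1.81 and 0.662 in No DEN labelled knockout. In DEN livers it was at 1.64, 0.552 and 2.18 CPM in WT and at 1.79, 1.46 and 1.48 in labelled knockout. The groups overlapped, and the highest and the second lowest values were both from No DEN labelled knockout mice. Its average log2 difference was -0.28 ± 0.46 (SE), which did not pass, and it was -0.08 without DEN WT replicate 2.

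The P-glycoprotein counts were estimates: the deposited counts of Abcb1a and Abcb1b were not whole in 9 of 12 libraries, while those of the other 7 pumps were whole throughout. The sum of the pair was whole, to within 0.01, in 12 of 12 libraries. Abcb1a made up 44.8%, 42.0% and 58.3% of that sum in No DEN WT and 22.2%, 41.6% and 58.4% in No DEN labelled knockout. With DEN its share was 77.9%, 93.0% and 63.4% in WT and 72.5%, 71.3% and 80.7% in labelled knockout, above every library without DEN. The summed count of both genes was 44 to 170 without DEN and 168 to 310 with DEN, so that 1 library of No DEN labelled knockout, at 170, overlapped the DEN range. Tested as 1 summed gene, an alternative added after seeing the data, the pair rose by 1.11 on the log2 scale on average, and the differences of 1.44 in WT and 0.79 in labelled knockout did not pass.

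**Figure D2:**
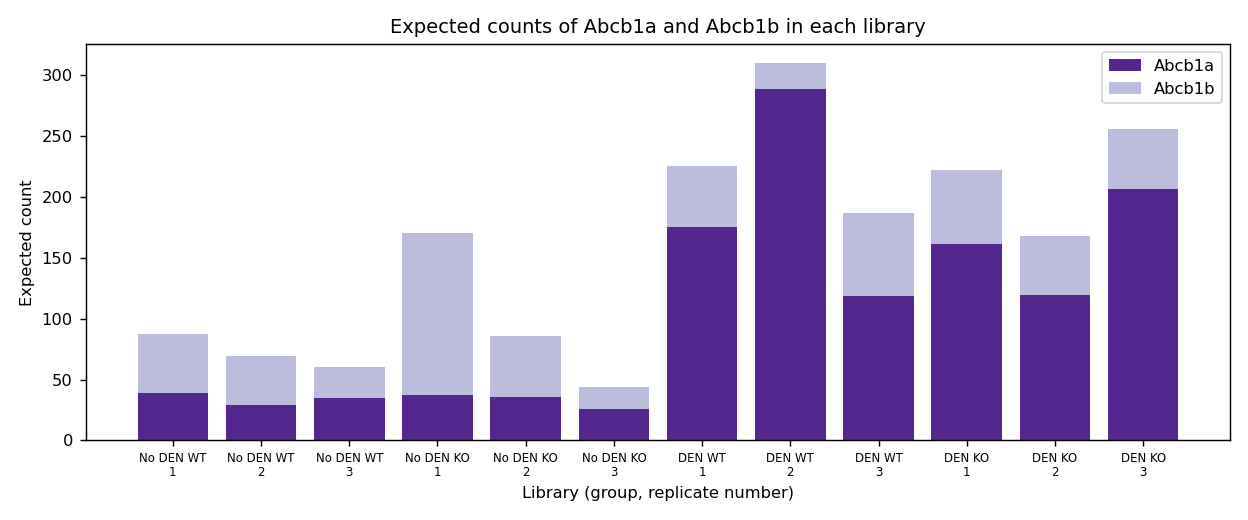
Expected counts of Abcb1a (dark) and Abcb1b (light), stacked, in each library by group and replicate number (KO, labelled knockout). Abcb1a makes up 22.2% to 58.4% of the bar in the 6 libraries without DEN and 63.4% to 93.0% in the 6 with DEN.

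Abcc2 (Mrp2), which secretes bilirubin glucuronides and glutathione conjugates into bile, was at 144, 176 and 158 CPM in No DEN WT and at 174, 158 and 202 in No DEN labelled knockout. With DEN it was at 223, 416 and 227 CPM in WT and at 244, 265 and 297 in labelled knockout. All 6 DEN libraries were above the other 6, and DEN WT replicate 2 was the highest. The log2 difference was 0.73 ± 0.17 (SE) on average and passed. It was 0.86 ± 0.24 in WT and 0.60 ± 0.24 in labelled knockout, neither of which passed. Without DEN WT replicate 2 the labelled knockout difference of 0.60 passed and the WT difference of 0.50 did not. The average was then 0.55 and still passed. With DEN WT replicate 2 kept, the average no longer passed without No DEN WT replicate 1 (0.69) or replicate 3 (0.72).

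Abcb4 was at 287, 296 and 295 CPM in No DEN WT and at 212, 245 and 234 in No DEN labelled knockout. DEN libraries held it at 193, 101 and 198 CPM in WT and at 186, 218 and 246 in labelled knockout. The WT groups did not overlap, and the labelled knockout groups did. The log2 difference was -0.46 ± 0.16 (SE) on average, -0.83 ± 0.23 in WT and -0.08 ± 0.23 in labelled knockout, and none passed. The direction in labelled knockout depended on scaling, since it was 0.19 with library size scaling. DEN WT replicate 2, at 101 CPM, was the lowest of all 12. Without it Abcb4 fell on average (-0.33) and in WT (-0.58), and with DESeq2 it also passed in both.

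Abcg2, which exports sulfated conjugates, porphyrins and many drugs, was at 54.5, 68.4 and 67.0 CPM in No DEN WT and at 46.3, 57.7 and 68.5 in No DEN labelled knockout. With DEN it was at 85.1, 30.5 and 85.9 CPM in WT and at 66.2, 62.7 and 79.9 in labelled knockout. DEN WT replicates 1 and 3 were the highest of the 12 and replicate 2 the lowest. The log2 difference was 0.18 ± 0.23 (SE) on average and 0.08 ± 0.32 in WT, and neither passed. Without DEN WT replicate 2 the average was 0.36 and passed, and the WT difference of 0.43 did not.

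Of the basolateral pumps, Abcc4 (Mrp4), an exporter of bile salts with glutathione and of cyclic nucleotides, was at 1.296, 0.951 and 1.03 CPM in No DEN WT and at 0.614, 0.830 and 1.14 in No DEN labelled knockout. In DEN livers its values were 6.53, 85.8 and 6.67 CPM in WT and at 6.67, 4.27 and 5.12 in labelled knockout. All 6 DEN libraries were above the other 6, and DEN WT replicate 2 was far above the remaining 5. The log2 difference was 3.77 ± 0.66 (SE) on average and 4.92 ± 0.97 in WT, both of which passed, and 2.63 ± 0.92 in labelled knockout, which did not. Without DEN WT replicate 2 the differences were 2.61 on average, 2.59 in WT and 2.63 in labelled knockout, and all 3 passed.

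Abcc3 (Mrp3), which returns glucuronides and bile salts to blood, was at 254, 287 and 285 CPM in No DEN WT and at 125, 185 and 247 in No DEN labelled knockout. DEN libraries held it at 292, 137 and 273 CPM in WT and at 284, 299 and 365 in labelled knockout. In WT the groups overlapped, whereas all 3 DEN libraries of the labelled knockout were above the 3 without DEN. The log2 difference was 0.27 ± 0.21 (SE) on average, -0.24 ± 0.30 in WT and 0.77 ± 0.30 in labelled knockout, and none passed. Without DEN WT replicate 2 it was 0.405 on average and 0.04 in WT.

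Abcc1 (Mrp1), a widely expressed exporter of glutathione conjugates that is low in resting hepatocytes, was at 0.852, 1.15 and 0.921 CPM in No DEN WT and at 0.768, 1.05 and 1.21 in No DEN labelled knockout. With DEN it was at 1.35, 3.71 and 1.47 CPM in WT and at 3.12, 1.37 and 1.39 in labelled knockout. The DEN libraries all lay above the others, 4 of them by a small margin and 1 of each genotype by more. The average log2 difference of 1.06 ± 0.33 (SE) lay at the threshold and did not pass. It passed in 7 of 21 alternatives, DESeq2 and library size scaling among them, and was 0.74 without DEN WT replicate 2, where it did not pass. Abcc6, a hepatocyte pump of the basolateral membrane whose loss causes ectopic calcification, was at 222, 250 and 264 CPM in No DEN WT and at 155, 228 and 270 in No DEN labelled knockout. In DEN livers its values were 155, 92.3 and 166 CPM in WT and at 170, 189 and 218 in labelled knockout. Only the WT groups were free of overlap, and the average log2 difference of -0.51 ± 0.18 (SE) did not pass. It passed in 2 of 21 alternatives, namely DESeq2 and the fit that left out the first No DEN labelled knockout library (-0.61). It was -0.39 without DEN WT replicate 2.

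**Figure D3:**
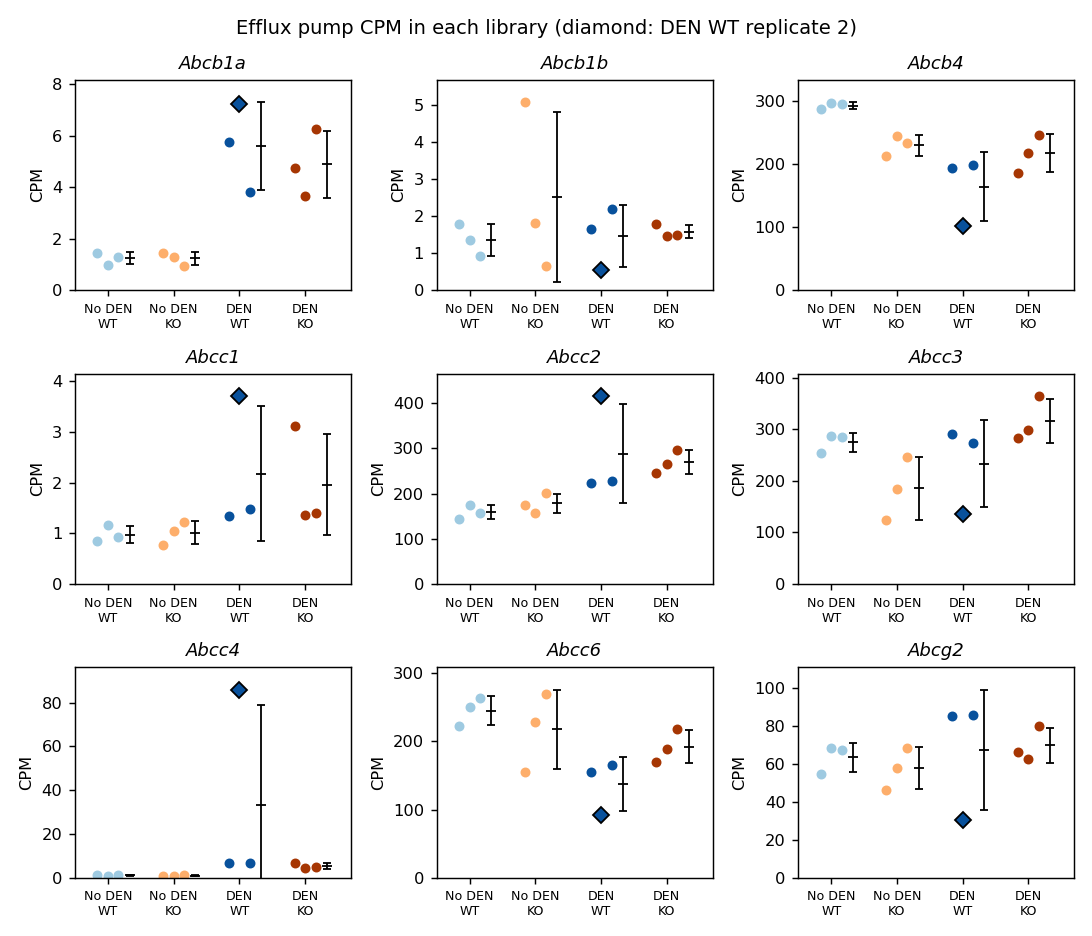
CPM of each pump gene in each library by group (KO, labelled knockout), with bars for the mean and SD of 3 libraries and a diamond for DEN WT replicate 2. Abcb1a, Abcc1, Abcc2 and Abcc4 have all 6 DEN libraries above the other 6, and the diamond is the highest point for these 4 genes.

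Taken within a genotype, Abcb1a and Abcc4 rose with DEN in WT, where 2.74% of all genes passed. In labelled knockout Abcb1a rose, where 0.194% passed. Abcc4 in WT and Abcb1a in labelled knockout were among the values known when the genes were chosen. Nothing is read from these counts beside those shares. The median log2 difference of the 9 pumps was 0.10 in WT and 0.60 in labelled knockout, against 0.029 and -0.025 over all genes. Of the alternatives run, the WT call of Abcc4 was lost in 11 of 21 and that of Abcb1a in 5 of 22, and the labelled knockout call of Abcb1a was lost in 14 of 22. In each Abcb1a count, 1 of the lost calls was that of the summed P-glycoprotein pair.

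**Figure D4:**
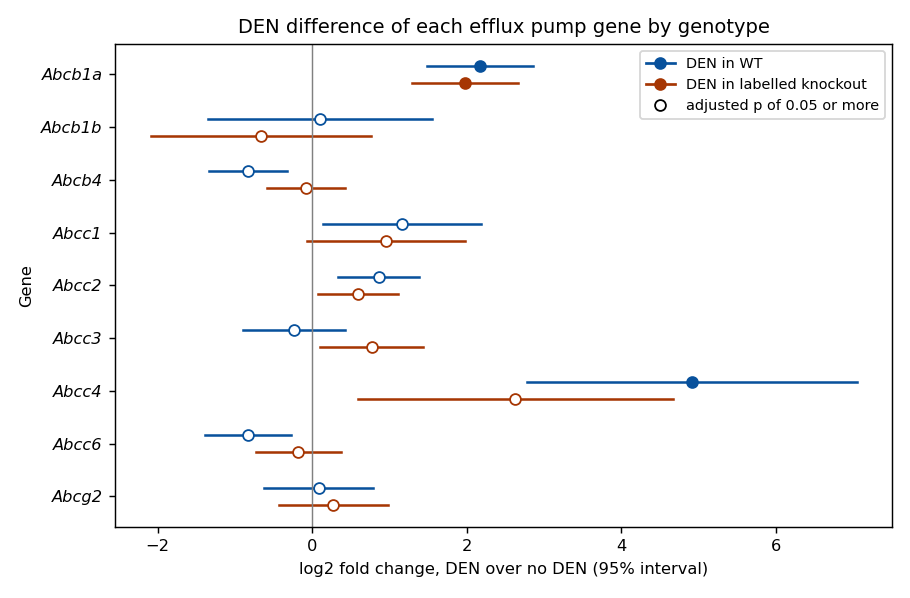
Log2 fold change with DEN (x axis) for each pump gene (y axis) in WT and in labelled knockout, with 95% intervals and filled points where the adjusted p was under 0.05. Abcb1a, at 2.17 and 1.98, is the only gene filled in both genotypes, and Abcc4 is filled in WT at 4.92.

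DEN WT replicate 2 held the highest value of all 12 libraries for Abcb1a, Abcc1, Abcc2 and Abcc4 and the lowest for Abcb1b, Abcb4, Abcc6 and Abcg2, with Abcc3 in place 11. Relative to the mean of DEN WT replicates 1 and 3, Abcc4 was 13.0-fold higher, Abcc1 2.63-fold, Abcc2 1.85-fold and Abcb1a 1.51-fold. Abcb1b was 3.46-fold lower, Abcg2 2.80-fold, Abcc3 2.07-fold, Abcb4 1.93-fold and Abcc6 1.74-fold. The pumps parted in that liver, which is 1 mouse. Beside these values, the bile salt uptake carrier Slc10a1 was at 22.6 CPM there against 332 to 650 in the other 11 libraries, and the organic anion carrier Slco1b2 at 8.60 against 478 to 858. Nr1i3, the xenobiotic receptor CAR, was at 2.33 CPM against 111 to 205. These 3 were chosen after their values were seen, and their part in the pump values was not tested.

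The knockout label was compared separately without and with DEN, in contrasts that share no libraries with each other. None of the 9 pumps passed in either, nor did any of the 12909 genes (0% in each), while 477 genes without DEN and 1308 with DEN had an unadjusted p under 0.05 in edgeR's test, and DESeq2 called 5 and 140. The median log2 difference over the pumps was -0.14 without DEN and 0.05 with DEN, beside 0.0092 and -0.0017 over all genes.

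How many of all genes separate 3 labelled knockout libraries from 3 WT libraries was not counted, so nothing is read from such separations. Without DEN, Abcb4 was lower in all 3 labelled knockout libraries (212 to 245 CPM) than in all 3 WT libraries (287 to 296). Its log2 difference of -0.35 ± 0.23 (SE) did not pass (edgeR's quasi-likelihood test, Benjamini-Hochberg adjusted p = 1). Abcc3 was also lower in all 3 (125 to 247 CPM against 254 to 287), with a difference of -0.57 ± 0.30 that did not pass (edgeR adjusted p = 1). For Abcb1b the difference of 0.89 ± 0.65 (edgeR adjusted p = 1) rested on replicate 1 of the labelled knockout, and it was -0.13 without that library.

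With DEN, Abcc4 had the largest difference of the 9 between labelled knockout and WT, -2.63 ± 0.85 (SE) on the log2 scale (edgeR adjusted p = 0.378), and its groups overlapped. Without DEN WT replicate 2 that difference was -0.29. Abcc6 was higher in all 3 labelled knockout libraries (170 to 218 CPM) than in all 3 WT libraries (92.3 to 166), by 0.48 ± 0.25 (edgeR adjusted p = 0.527). The share of all genes separated in that way was not counted here either. The differences of Abcb4 (0.40 ± 0.23, edgeR adjusted p = 0.557) and Abcc3 (0.44 ± 0.30, edgeR adjusted p = 0.605) did not pass, and both genes overlapped between the groups. Leaving out DEN WT replicate 2 gave differences of 0.16 for Abcb4, 0.175 for Abcc3 and 0.27 for Abcc6. The 95% intervals over all libraries ran from -0.10 to 0.91 for Abcb4 and from -0.22 to 1.09 for Abcc3.

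Whether DEN differences themselves differed by genotype was tested as an interaction. No pump passed, nor any gene (0%), with 842 genes at an unadjusted p under 0.05 in edgeR's test and 12 called by DESeq2. The pump median of the interaction was -0.20 on the log2 scale, beside -0.024 over all genes. Abcc3 had an interaction of 1.002 ± 0.42 (SE), Abcb4 of 0.75 ± 0.32 and Abcc4 of -2.29 ± 1.27 (edgeR adjusted p = 0.735 for each). With DEN WT replicate 2 left out these were 0.735 for Abcc3, 0.50 for Abcb4 and 0.04 for Abcc4.

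Other transport genes of the liver were read from lists that, like the pumps, were drawn up with earlier results known. Counts on these lists and on those below are description, beside 16.5% of all genes that passed with DEN on average. Of 8 other canalicular and bile transport genes, 6 were tested and 1 fell with DEN on average, with a list median of -0.16 on the log2 scale. That gene was Abcb11, the bile salt export pump, at 344.5 to 600.9 CPM without DEN and 157.1 to 335.7 with DEN, a log2 difference of -0.73 ± 0.18 (SE) with no overlap between libraries. It passed in 16 of 21 alternatives and was -0.62 without DEN WT replicate 2. The share of all genes separated downward in that way was not counted, so nothing is read from the separation. Atp8b1, a canalicular phospholipid flippase (-0.25 ± 0.12), and the copper pump Atp7b (0.25 ± 0.14) did not pass. None of 8 sinusoidal uptake carriers passed, with a list median of -0.32. The organic anion carrier Slc22a7 had the smallest p of these and a difference of -0.79 ± 0.29.

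Of 22 other ABC transporters tested, 4 rose and 1 fell, with a median of 0.21. Of all genes tested, 16.5% passed in either direction and 8.4% upward. Abcg1, a sterol exporter well known from macrophages, rose by 1.62 ± 0.27 (SE) on the log2 scale, and Abcc9, a subunit of ATP-sensitive potassium channels in vessels, rose by 0.90 ± 0.17. Abca9 rose by 0.96 ± 0.18 and Abcc12 by 3.62 ± 0.96, the latter from at most 0.154 CPM and with a difference of 1.98 without DEN WT replicate 2. Abcd4, which takes part in lysosomal cobalamin export, fell by 0.83 ± 0.23, and it was added by name after its value was seen. Among these 5, Abcg1, Abca9 and Abcc9 passed in 21 of 21 alternatives, Abcd4 in 12 of 21 and Abcc12 in 12 of 20.

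Factors known to control pump genes were read as well. Of 13 receptors and factors, 1 fell and none rose, with a median of -0.28, beside 16.5% of all genes that passed in either direction. It was Nr5a2, a receptor that drives bile acid genes, with a log2 difference of -0.56 ± 0.12 (SE) that did not pass with library size scaling (-0.29). Nfe2l2, which encodes NRF2 and is named for that role, differed by 0.22 ± 0.12, and Nr1h4, the bile acid receptor FXR, by -0.43 ± 0.20, and neither passed. Of 14 NRF2 target genes tested none passed, with a median of 0.51. Pgd and Hmox1 had the smallest p, and Nqo1 followed, at 1.92 to 6.12 CPM without DEN and 5.47 to 40.2 with DEN. Nqo1 was highest in DEN WT replicate 2, as were Pgd, Gsta1, Gstm3, Srxn1, Gclc and Gstm1. Gsta2, Gclm and Gstp1 were the lowest of all 12 libraries there, and the remaining targets were at neither end. Targets beyond the first 4 by p were named after their values were seen. The part of NRF2 in the pump values was not tested. Of 13 targets of the xenobiotic receptors CAR and PXR, 1 rose, with a list median of -0.13. It was Cyp2b9, by 6.40 ± 1.22 from at most 2.11 CPM without DEN, and by 4.43 without DEN WT replicate 2. Cyp2b9 passed in 19 of 20 alternatives, lost with limma-voom, and did not pass within either genotype in the main fit. None of 10 bile acid synthesis genes passed, with a median of -0.47.

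Markers of other liver cells moved with DEN beside the pumps. Across all genes tested, 8.4% passed upward with DEN on average. Of 12 endothelial markers 11 rose, and their sum was 97.0 to 178.3 CPM without DEN and 262.3 to 324.1 with DEN. Of 11 Kupffer cell and macrophage markers 5 rose, from a sum of 67.7 to 231.4 CPM to 157.3 to 1126, and of 9 stellate and fibroblast markers 2 rose, from 67.9 to 150.2 CPM to 190.9 to 389. The 1126 came from a DEN labelled knockout library, against at most 435.8 in DEN WT, and no Kupffer cell or macrophage marker passed within either genotype. DEN WT replicate 2 gave the 324.1, the 157.3 and the 389. Col3a1, 1 of the 2 stellate markers, differed by 1.82 on the log2 scale and by 0.81 without that library, and it passed in 8 of 20 alternatives. Of 8 lymphocyte and neutrophil markers tested 1 rose, from a sum of 3.14 to 7.14 CPM to 3.49 to 33.9. The 33.9 came from a DEN labelled knockout library, against at most 9.10 in DEN WT, and none of these markers passed within either genotype. Of 9 cholangiocyte markers tested none passed, with sums of 42.4 to 86.4 CPM without DEN and 44.8 to 54.6 with DEN. Of the defining bile duct markers, Epcam was at 0.806 to 1.61 CPM and Krt19 at 0.0502 to 2.32, with no library at 0. Cftr, Ms4a1 and Ly6g were too low or not listed in every table and were not tested. Endothelial cells and macrophages are known to express some of the scarce pumps, and the part of these cells in the values of Abcb1a, Abcc1 and Abcc4 was not tested.

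The 3 genes whose CPM followed each called pump most closely over the 12 libraries were ranked by Spearman's rho among 11490 genes, as a description. For Abcb1a they were Dusp7 (0.972), Cyp2a5 (0.944) and Susd1 (0.937), and 20 genes reached 0.9. For Abcc2 they were Ric1 (0.979), Pola1 (0.972) and Fam177a (0.944), and 58 genes reached 0.9. For Abcc4 they included Ldb2 and Parvb (0.972 each), and 99 genes reached 0.9. All 12 points share the DEN grouping and the same libraries, so genes that separate the DEN groups rank high together. The genes next to the P-glycoprotein cluster differed from Abcb1a: Slc25a40, before it, had a log2 DEN difference of 0.19 ± 0.14 (SE) and did not pass, and Crot, after Abcb4, fell by 0.55 ± 0.17.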

How the data were processed

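The authors deposited 4 tables, 1 per group, which per the file headers give a read count and a TPM for each gene in 3 libraries. These deposited read counts are expected counts, since 6.58% to 7.39% of each library's values were fractional. The authors' TPM values were used only for levels between genes. Build GRCm38.p6 is named in the submitters' processing notes, with RSEM 1.3.1, Bowtie2 2.3.4.3, HISAT2 2.2.1 and DESeq2 1.4.5. Which step each tool served, and whether counting used strand, is not given in the sources used here. Overlapping genes may therefore share reads. A table holds only mRNA genes whose TPM reached 0.01 in each of its libraries, and 13371 of 14944 genes are in all 4.

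Replicates are separate mice. Chi-square per degree of freedom within a group was 27.9 or more, so no library was a repeat of another. Counts were rounded, TMM-scaled, filtered with filterByExpr to 12909 genes (all 9 pumps passed) and fitted once over all 12 libraries with edgeR 4.0.16 (glmQLFit, glmQLFTest, robust, 1 coefficient per group), in R 4.3.3. The threshold was a Benjamini-Hochberg adjusted p of 0.05 over all genes, and intervals are 95%. limma 3.58.1 and DESeq2 1.42.0 served as alternatives, beside library size scaling, other filters, the compared groups alone, a replicate block and leaving out each library. Steps were tested on simulated data. The pumps, the lists and the tests were chosen with earlier results of these data known. Named genes are the pumps, Otud3, a few cell type markers, up to 4 genes per list by smallest adjusted p, the genes beside a pump and the 3 genes most like each called pump, and others are marked. 1 of the genes most like Abcc4 is not reported here.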

Additional observations from a re-analysis of the deposited data

How the results depend on the processing

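The counts of pumps called depended on the fit, as did the counts of all genes called. With DEN averaged over genotypes, 3 pumps were called, 5 with DESeq2, 2 to 5 when 1 library was left out, and 5 (Abcb1a, Abcb4, Abcc2, Abcc4, Abcg2) without DEN WT replicate 2. Of all genes, 2131 of 12909 were called in the main fit, 3232 of 12909 with DESeq2 and 3046 of 12962 without DEN WT replicate 2. With 1 library left out the range was 656 to 3046. In WT 2 pumps were called, 4 with DESeq2, 1 with limma-voom, 1 with the P-glycoprotein pair summed, 0 with only the groups compared and 0 to 4 when 1 library was left out. All genes called in WT were 354, 1953 with DESeq2, 299 with limma-voom and 348 with the pair summed. They were 0 with only the groups compared and 0 to 1038 when 1 library was left out. In labelled knockout 1 pump was called, 0 with limma-voom, 0 with the pair summed and 0 to 3 when 1 library was left out, the 3 without DEN WT replicate 2. All genes called were 25 there, 20 with limma-voom and 20 with the pair summed. With 1 library left out they were 0 to 912, the 912 without DEN WT replicate 2. No pump was called in either knockout-label contrast or the interaction under any alternative. Abcb1a passed on average in 21 of 21 alternatives, 1 of which was the summed pair (1.11), and ran from 1.96 to 2.37 in the others. Abcc2 passed in 19 of 21 (0.55 to 1.02) and Abcc4 in 19 of 20 (2.61 to 4.12, lost with limma-voom). DESeq2 gave Abcc4 no adjusted p. Directions reversed only for genes that did not pass. Abcb1b in WT was 0.10, -0.12 with limma-voom and -0.32 to 0.50 with 1 library left out. Abcg2 in WT was 0.08, -0.0313 with limma-voom and -0.14 to 0.43 likewise. Leaving out 1 library also gave Abcb1b -0.51 to 0.23 on average, -1.12 to 0.35 in labelled knockout and -0.13 to 1.34 for the knockout label without DEN, Abcb4 -0.19 to 0.0139 and Abcc6 -0.38 to 0.00296 in labelled knockout, Abcc3 -0.43 to 0.0376 in WT and Abcc4 -2.77 to 0.0396 for the interaction. Library size scaling gave Abcb4 0.19 and Abcc6 0.0863 in labelled knockout. That scaling shifted the median of all genes by 0.27 on average and turned most calls upward, so a direction is relative to the median of all genes. No source says that replicate numbers pair the mice. The correlation of same-numbered libraries' deviations from their group means ran from -0.19 to 0.22 and was over 0.1 in 4 of 18 pairs. With 3 libraries per group this cannot exclude pairing, so a replicate block was run as an alternative. With the replicate block 3 pumps were called on average, 1 in WT and 0 in labelled knockout. Over all genes that fit called 1863, 429 and 18. Log-scale tests of TPM were not run, since counts were given. Libraries of 29668861 counts or more still left the scarce pumps with few reads, from 16 for Abcc4 in No DEN labelled knockout replicate 1. Also, 3 mice per group limit every value.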
